A study of Homo sapiens with 12 samples.

Results

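The integrin and laminin genes of 3 established prostate cell lines were examined in RNA-sequencing data. The list held 37 protein-coding genes, chosen by family name from the 58302 genes of the deposited table, 19817 of which were protein-coding. It comprised 26 integrin genes (18 alpha and 8 beta) and 11 laminin genes (5 alpha, 4 beta and 2 gamma). BPH-1 is a line of benign prostate epithelial cells, and DU145 and PC3 are PCa lines that do not depend on androgen. Each line gave 4 libraries of total RNA from wild-type cells, which were grown in DMEM with fetal bovine serum, penicillin and streptomycin and received no treatment. Each group was a single line, so a difference between lines cannot be told apart from one between benign and malignant cells. None of the sources used here said that the 4 libraries of a line came from separate cultures, so the p-values measure only the spread between libraries, which may be technical.

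Integrins are pairs of an alpha and a beta chain that span the cell membrane and tie the extracellular matrix to the cytoskeleton. Laminins are cross-shaped trimers of an alpha, a beta and a gamma chain and form the sheet of the basement membrane on which epithelial cells rest. In prostate epithelium the basal cells hold on to laminin through hemidesmosomes, which are built on the pair of integrin alpha 6 and beta 4, and the loss of this contact has long been studied in PCa. The levels given below are of RNA, and an integrin or laminin at the cell surface also depends on its partner chains.

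The values were FPKM, that is, reads of a gene divided by its length and by the library's total. Levels set side by side between genes depend on the length used, here the sum of distinct exons, and on the GC trend described below. Ratios between genes are given below with this length only. The depth recovered from the steps between low values was 12950665 to 16309560 reads per library, and a gene with at most 3 reads in a library was taken as not detected there. Libraries differed in how their values followed the GC content of genes. The slope of log2 FPKM against GC content, relative to the mean of the 12 libraries, was -0.74 to -0.61 per 10 GC points in BPH-1, -0.02 to 0.72 in PC3 and -0.18 to 1.06 in DU145. DU145 replicates 1 and 3 (0.70 and 1.06) stood apart from replicates 2 and 4 (-0.18 and -0.003), and PC3 replicate 4 (0.72) stood apart from PC3 replicates 1 and 2 (-0.02 and 0.06). Genes of low GC content were relatively lower in the libraries with a steep positive slope and relatively higher in BPH-1, where every slope was negative. The limma fold changes of the members were therefore also computed with this trend divided out (ratios of summed reads were not). This step removes a real difference that follows GC content as well. The epithelial keratins KRT8 and KRT18 were present in all 3 lines, with mean FPKM of 31.1 and 35.8 in BPH-1, 19.7 and 69.0 in DU145 and 23.0 and 29.5 in PC3. The basal keratin KRT5 had a mean FPKM of 147 in BPH-1, 0.216 in DU145 and 0.0118 in PC3. The epithelial adhesion genes EPCAM and CDH1 had mean FPKM of 60.8 and 28.4 in BPH-1, 9.10 and 0.786 in PC3 and only 0.376 and 0.180 in DU145, so 3 of the 5 epithelial markers checked were nearly absent from the libraries labelled DU145. Whether this label is right was not tested, and the sources used here do not say whether the DU145 libraries were prepared together, so DU145 stands below for the libraries so labelled.

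Of the 37 genes, 24 had a mean FPKM of 1 or more in at least 1 line and 13 stayed below 1 in every line. The number with a mean of 10 or more was 12 in BPH-1, 10 in DU145 and 12 in PC3. ITGA8, ITGAD and LAMB4 had at most 3 reads in every library. The heat map of all members by library shows which genes carry the signal in each line.

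**Figure D1:**
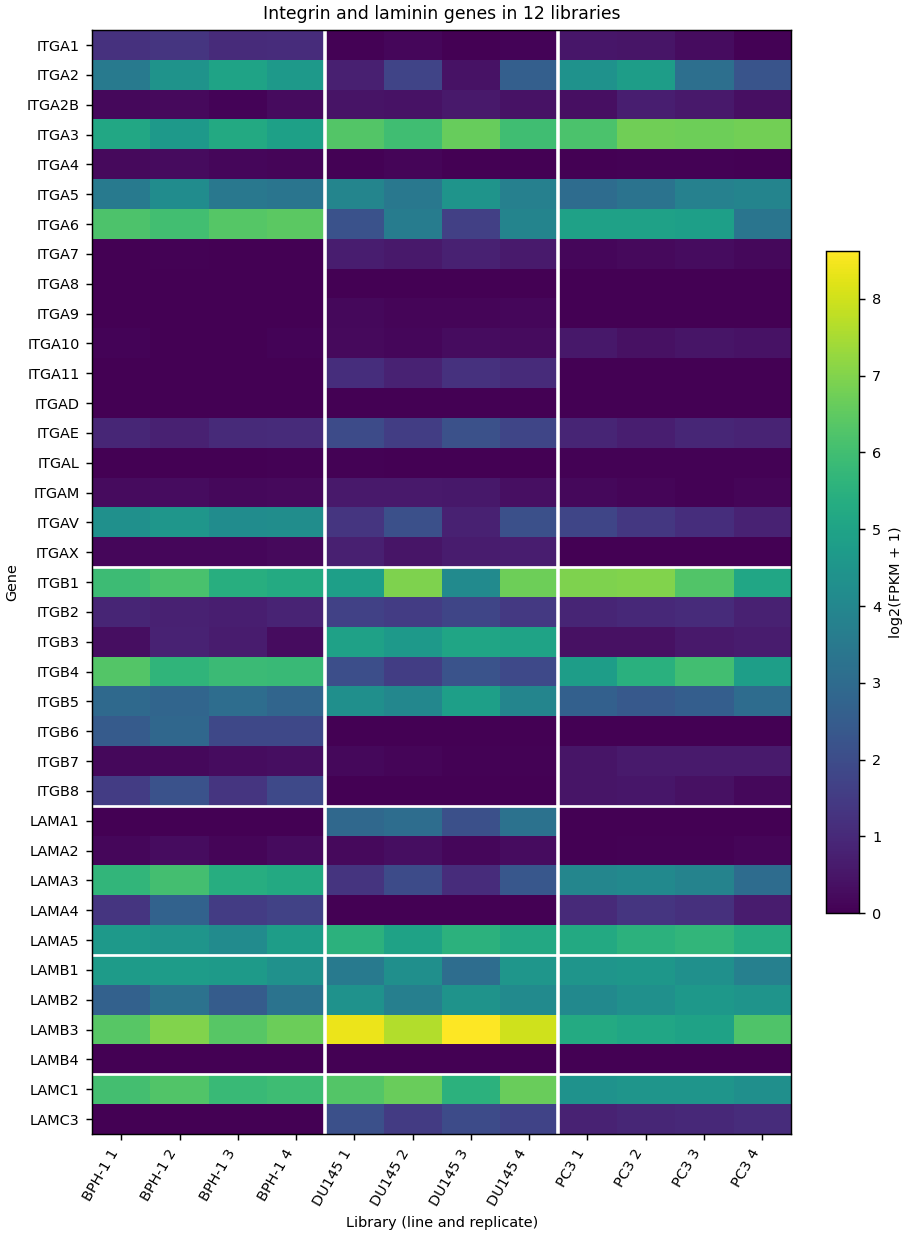
Each row is an integrin or laminin gene and each column a library, coloured by log2(FPKM + 1), with white lines between cell lines and between subfamilies. LAMB3 in DU145 is the brightest block (FPKM 199 to 394), ITGB3 and LAMA1 are bright in DU145 only, and ITGAV, ITGB6 and ITGA6 are brightest in BPH-1.

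The lines were compared with limma on log2(FPKM + 1), on which scale the change of a low gene is understated, and p-values were adjusted by Benjamini-Hochberg over all genes tested. In PC3 against BPH-1, 30 members could be tested, and 8 were higher and 13 lower at an adjusted p under 0.05 in limma. Of all 16408 genes tested, 67.6% were called, 27.1% higher and 40.4% lower, and the share of members called, 21 of 30, was near this background. In DU145 against BPH-1, 33 members could be tested, and 17 were higher and 12 lower, or 87.9% of them, beside 62.7% of all 17016 genes (30.3% higher and 32.4% lower). In PC3 against DU145, 31 members could be tested, and 9 were higher and 14 lower, or 74.2%, beside 48.3% of all 16420 genes (20.0% higher and 28.3% lower). Of the members tested, 6, 9 and 6 entered these 3 comparisons only through the line in which they were high and had to differ, so these shares do not set the list apart from other genes. In PC3 against BPH-1 they were ITGA4, ITGA7, ITGA10, ITGAX, ITGB6 and LAMC3. In DU145 against BPH-1 they were ITGA7, ITGA9, ITGA10, ITGA11, ITGB6, ITGB8, LAMA1, LAMA4 and LAMC3, and in PC3 against DU145 they were ITGA9, ITGA11, ITGAX, ITGB8, LAMA1 and LAMA4. No p-value is given for these genes in these comparisons, and the exact permutation test below is not applied to them. The median absolute log2 fold change of the members was 0.64 in PC3 against BPH-1 (0.54 for all genes), 1.07 in DU145 against BPH-1 (0.59 for all genes) and 0.65 in PC3 against DU145 (0.45 for all genes). These medians include the members that had to differ, and the last 2 are the values of ITGA11 and ITGAX, which are among them. The medians therefore do not set the list apart from other genes either. The first and the second comparison share the BPH-1 libraries.

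Where the ranges of 4 against 4 libraries do not overlap, the two-sided exact permutation test of a gene gives p = 0.0286, the smallest this design allows. The ranges did not overlap for 20 members in PC3 against BPH-1, 8 higher and 12 lower, beside 64.4% of all genes tested (25.8% higher and 38.6% lower). They did not overlap for 27 members in DU145 against BPH-1, 17 higher and 10 lower (59.5% of all genes, 28.8% higher and 30.6% lower), and for 20 members in PC3 against DU145, 6 higher and 14 lower (46.5% of all genes, 19.1% higher and 27.5% lower). These counts include the 6, 9 and 6 members that entered only through the line in which they were high. Those members had to differ, so p = 0.0286 of the exact permutation test is not applied to them. The counts do not set the list apart from other genes. With the GC trend divided out, 22, 28 and 26 members were called in the 3 comparisons, where 63.5%, 62.4% and 58.8% of all genes were called. Of the members called from the deposited values, 19 of 21, 27 of 29 and 23 of 23 kept their call and direction after this step. ITGA1 and LAMA5 lost it in PC3 against BPH-1, and ITGA4 and LAMA5 lost it in DU145 against BPH-1. Calls were gained by ITGB1, ITGB4 and ITGB5 in PC3 against BPH-1, by ITGB1 in DU145 against BPH-1 and by ITGA3, ITGAV and LAMB2 in PC3 against DU145.

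**Figure D2:**
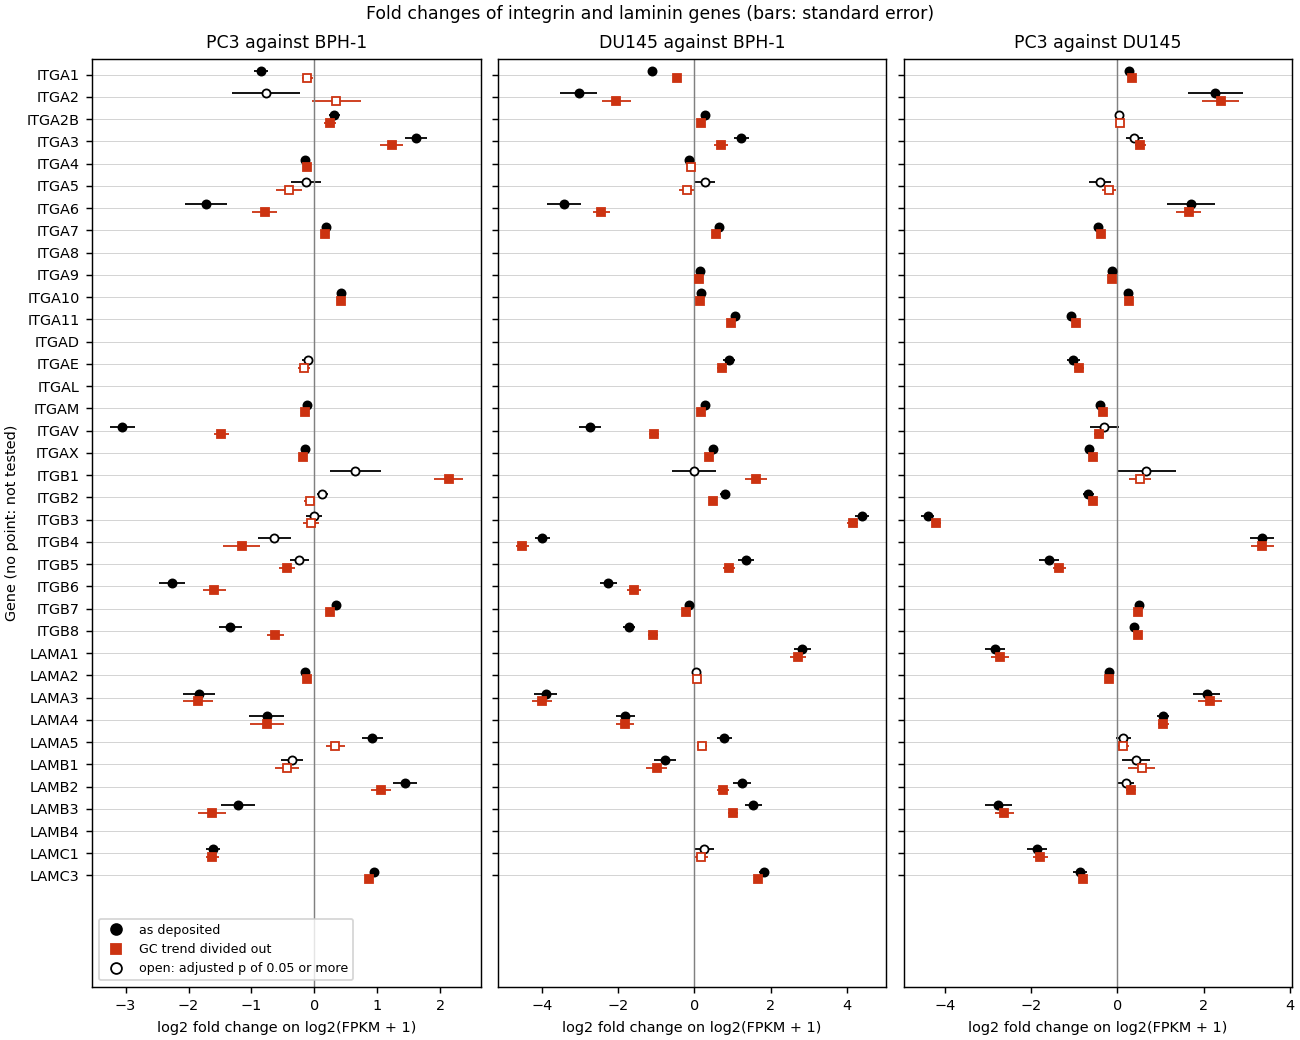
Each panel is a comparison, with the log2 fold change of each tested member on log2(FPKM + 1) as a black circle, the same with the GC trend divided out as a red square, and bars for the standard error; open symbols had an adjusted p of 0.05 or more. ITGAV (-3.05 to -1.48 in PC3 and -2.75 to -1.06 in DU145) and ITGB1 (0.65 to 2.14 and -0.02 to 1.61) move most between circle and square in the comparisons with BPH-1, while LAMA3, ITGB3 and LAMC1 hardly move.

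The receptor of the hemidesmosome was lower in DU145, and its chains differed less evenly in PC3. ITGA6, the alpha chain that joins ITGB4 in hemidesmosomes and ITGB1 in other laminin receptors, had an FPKM of 72.6, 64.0, 79.9 and 86.3 in BPH-1. It was 3.47, 11.4, 2.09 and 13.8 in DU145 and 29.7, 29.9, 28.2 and 9.32 in PC3. All BPH-1 libraries lay above all libraries of the other lines, DU145 replicates 1 and 3 were below replicates 2 and 4, and PC3 replicate 4 lay far under the other PC3 libraries. Against BPH-1 the log2 fold change was -3.43 in DU145 (standard error 0.45, limma adjusted p = 0.000124) and -1.72 in PC3 (standard error 0.33, limma adjusted p = 0.00124). With the GC trend divided out these became -2.44 and -0.79, and both calls remained. PC3 was higher than DU145 by 1.70 (limma adjusted p = 0.0315), but the ranges overlapped (9.32 against 13.8), and the adjusted p was 0.0671 to 0.0851 without DU145 replicate 1 or 3 or PC3 replicate 1, 2 or 3. With DU145 replicates 2 and 4 only it was 0.77 (limma adjusted p = 0.211), and with the GC trend divided out it was 1.65 (limma adjusted p = 0.00101).

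ITGB4, the beta chain whose long cytoplasmic tail binds plectin, had an FPKM of 77.9, 49.0, 57.3 and 57.0 in BPH-1 and of 3.17, 1.94, 3.56 and 2.70 in DU145. In PC3 it was 26.8, 43.7, 63.2 and 27.7. DU145 stood below both other lines without overlap, and PC3 overlapped BPH-1. In limma it was -3.99 in DU145 against BPH-1 (standard error 0.20, limma adjusted p = 3.35e-07) and PC3 exceeded DU145 by 3.36 (standard error 0.28, limma adjusted p = 1.53e-05). The change in PC3 against BPH-1 was -0.64 with an adjusted p of 0.0588 in limma. It passed the threshold without PC3 replicate 3 (-0.88, limma adjusted p = 0.00714) and with the GC trend divided out (-1.16, limma adjusted p = 0.00612). The FPKM of ITGB4 divided by that of ITGA6 was 0.660 to 1.07 in BPH-1, 0.903 to 2.97 in PC3 and 0.170 to 1.70 in DU145, and with the GC trend divided out it was 1.28 to 2.32, 0.905 to 1.63 and 0.220 to 0.466.

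Genes of hemidesmosome partners moved in both directions. Of the 4 on the list fixed for this group, all were tested, and 2 were higher and 2 lower in each PCa line against BPH-1 (medians -0.88 in PC3 and -0.89 in DU145, beside -0.13 and -0.03 for all genes tested), and 1 was higher and 1 lower in PC3 against DU145. Of all genes 67.6%, 62.7% and 48.3% were called in these 3 comparisons, in the order PC3 and DU145 with BPH-1 and then PC3 with DU145. COL17A1, the transmembrane collagen of hemidesmosomes, had a mean FPKM of 95.7 in BPH-1, 2.83 in DU145 and 0.276 in PC3 (log2 fold change -4.69 and -6.24 against BPH-1). DST, which encodes the plakin dystonin, went from 9.87 in BPH-1 to 0.809 and 0.621. PLEC, the gene of plectin, was higher, with 36.3 in BPH-1, 74.5 in DU145 and 196 in PC3, and the call in DU145 was lost with the GC trend divided out (limma adjusted p = 0.0635). CD151, a tetraspanin that binds laminin receptors, was higher in both, with 6.61 in BPH-1, 13.2 in DU145 and 14.3 in PC3.

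ITGA3, the alpha chain of the other main laminin receptor of epithelium, was the most abundant alpha gene of both PCa lines. Its FPKM was 35.1, 24.4, 36.9 and 28.8 in BPH-1, 78.1, 61.8, 98.0 and 62.4 in DU145 and 72.2, 107, 104 and 110 in PC3. Every PCa library was above every BPH-1 library. limma put the log2 fold change at 1.62 in PC3 (standard error 0.17, limma adjusted p = 3.32e-05) and 1.23 in DU145 (standard error 0.20, limma adjusted p = 0.000477), and 1.23 and 0.70 with the GC trend divided out. Between PC3 and DU145 it differed by 0.39 (limma adjusted p = 0.139), which became 0.52 (adjusted p = 0.0414) without DU145 replicate 3 and 0.53 (adjusted p = 0.00636) with the GC trend divided out.

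ITGB1, the beta chain shared by most laminin, collagen and fibronectin receptors, could not be ordered between the lines. Its FPKM was 59.9, 70.3, 41.4 and 37.5 in BPH-1 and 124, 127, 77.4 and 33.6 in PC3. In DU145 it was 28.4 and 16.5 in replicates 1 and 3 and 124 and 105 in replicates 2 and 4. The exons of ITGB1 hold 40.9% GC, and the plot of FPKM against the GC slope shows its level falling from the flat to the steep libraries within DU145 and within PC3. limma gave a log2 fold change of 0.65 in PC3 (standard error 0.40, adjusted p = 0.174) and -0.02 in DU145 (standard error 0.58, adjusted p = 0.983), each against BPH-1. Without PC3 replicate 4 the change in PC3 was 1.06 (limma adjusted p = 0.00653). Against BPH-1, DU145 replicates 1 and 3 alone gave -1.19 (limma adjusted p = 0.0101) and DU145 replicates 2 and 4 alone gave 1.16 (adjusted p = 0.00793), so the sign rested on which libraries were used. With the GC trend divided out the changes were 2.14 in PC3 (limma adjusted p = 3.91e-05) and 1.61 in DU145 (limma adjusted p = 0.00102).

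**Figure D3:**
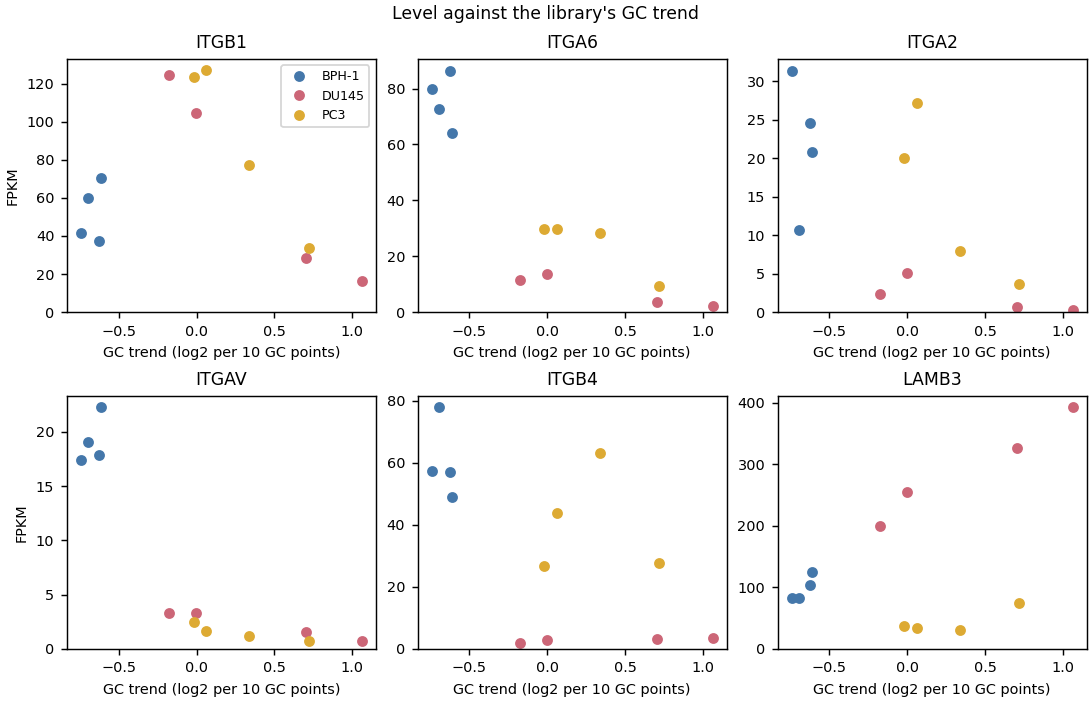
Each panel shows the FPKM of a gene (linear axis) against the GC slope of the library (log2 FPKM per 10 GC points, relative to the mean of the 12 libraries), with a point for each library, coloured by line. Within DU145 and within PC3, ITGB1, ITGA6, ITGA2 and ITGAV are lower in the libraries with the steepest slopes, while LAMB3 in DU145 is higher there (327 and 394 against 199 and 255).

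ITGA2, the alpha chain of a collagen and laminin receptor, had an FPKM of 10.7, 20.8, 31.4 and 24.6 in BPH-1. It was 0.682, 2.41, 0.329 and 5.10 in DU145 and 19.98, 27.2, 7.94 and 3.72 in PC3. All DU145 libraries were below all BPH-1 libraries, and PC3 overlapped both lines. It fell by 3.04 in DU145 against BPH-1 (standard error 0.48, limma adjusted p = 0.000374) and by 2.05 with the GC trend divided out, and it was higher in PC3 than in DU145 by 2.27 (limma adjusted p = 0.0162). The last difference was 1.46 with an adjusted p of 0.135 when DU145 was represented by replicates 2 and 4 only. In PC3 against BPH-1 the change was -0.77 (limma adjusted p = 0.231) and turned to 0.35 with the GC trend divided out (limma adjusted p = 0.458), so it had no stable direction. ITGA5, the alpha chain of the fibronectin receptor, had ranges that overlapped in every comparison, with 9.21 to 17.4 in BPH-1, 10.0 to 21.1 in DU145 and 7.26 to 13.7 in PC3, and adjusted p of 0.232 to 0.630 in limma. Its change in DU145 against BPH-1 turned from 0.27 to -0.21 with the GC trend divided out.

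The alpha v integrins changed in both of their parts. ITGAV, the alpha chain of the receptors for vitronectin and latent TGF-beta, had an FPKM of 19.1, 22.3, 17.4 and 17.9 in BPH-1. It was 1.51, 3.28, 0.741 and 3.32 in DU145 and 2.48, 1.61, 1.17 and 0.757 in PC3, and every PCa library lay below every BPH-1 library. The log2 fold change was -3.05 in PC3 (standard error 0.20, limma adjusted p = 1.54e-06) and -2.75 in DU145 (standard error 0.29, limma adjusted p = 2.71e-05). ITGAV has the second lowest GC content of the members (39.0%), and with the GC trend divided out these differences were -1.48 and -1.06, both still called. PC3 and DU145 did not separate in the deposited values with all libraries (-0.30, limma adjusted p = 0.483). With DU145 replicates 2 and 4 only the difference was -0.83 (limma adjusted p = 0.0408), and with replicates 1 and 3 only it was 0.22 (limma adjusted p = 0.553). With the GC trend divided out PC3 was lower (-0.42, limma adjusted p = 0.0112).

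ITGB3, the beta chain of the vitronectin receptor and of the platelet fibrinogen receptor, was abundant in DU145 alone. Its FPKM was 29.8, 24.2, 32.5 and 30.7 in DU145, 0.217 to 0.756 in BPH-1 and 0.319 to 0.568 in PC3. The log2 fold change was 4.39 in DU145 against BPH-1 (standard error 0.18, limma adjusted p = 1.15e-07) and that between PC3 and DU145 was -4.40 (standard error 0.15, limma adjusted p = 1.01e-07), and GC correction left them at 4.15 and -4.20. Its 2 known partners were low in the same libraries. ITGAV stood at a mean of 2.21 and ITGA2B, the platelet alpha chain, at 0.386, so that the FPKM of ITGB3 divided by that of ITGAV was 7.38 to 43.9 in DU145, beside 0.0121 to 0.0340 in BPH-1 and 0.130 to 0.751 in PC3. With the GC trend divided out the ratio was 6.97 to 9.83 in DU145, 0.0341 to 0.101 in BPH-1 and 0.142 to 0.258 in PC3. The platelet markers GP9, PF4 and PPBP summed to an FPKM of 0.617 to 1.74 in DU145, 0.360 to 1.44 in BPH-1 and 0.256 to 1.31 in PC3.

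The other beta chains that join ITGAV differed as well. ITGB5 had an FPKM of 6.76, 6.04, 7.46 and 5.99 in BPH-1, 18.7, 15.1, 28.1 and 14.0 in DU145 and 5.19, 4.36, 5.03 and 7.32 in PC3. It was higher in DU145 than in BPH-1 by 1.35 (standard error 0.22, limma adjusted p = 0.000402) without overlap. In PC3 against BPH-1 it overlapped (-0.24, limma adjusted p = 0.184), and without PC3 replicate 4 the change was -0.37 (limma adjusted p = 0.0173). ITGB6, an epithelial chain whose pair with ITGAV activates TGF-beta, had an FPKM of 4.51, 6.37, 2.66 and 2.62 in BPH-1 and at most 0.0187 in any PCa library. Its reads summed to 3287 over the BPH-1 libraries, 6 over DU145 and 3 over PC3, a depth-scaled ratio of BPH-1 to PC3 of 948 (95% counting interval 324 to 4599). Its log2 fold change of -2.26 in each PCa line against BPH-1 became -1.59 for PC3 and -1.58 for DU145 once the GC trend was divided out. ITGB8, which also pairs only with ITGAV, had an FPKM of 1.92, 3.46, 1.49 and 2.70 in BPH-1, 0.126 to 0.427 in PC3 and at most 0.0138 in DU145, with a log2 fold change of -1.33 in PC3 against BPH-1 (limma adjusted p = 0.00012), which became -0.62 with the GC trend divided out (limma adjusted p = 0.00261). Its reads summed to 2625 in BPH-1 and 6 in DU145, a depth-scaled ratio of 434 (95% counting interval 199 to 1185), and its log2 fold change there was -1.72 (-1.09 with the GC trend divided out). The summed FPKM of ITGB3, ITGB5, ITGB6 and ITGB8 was 11.5 to 16.6 in BPH-1, 39.3 to 60.6 in DU145 and 5.11 to 8.01 in PC3, and these ranges did not overlap.

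**Figure D4:**
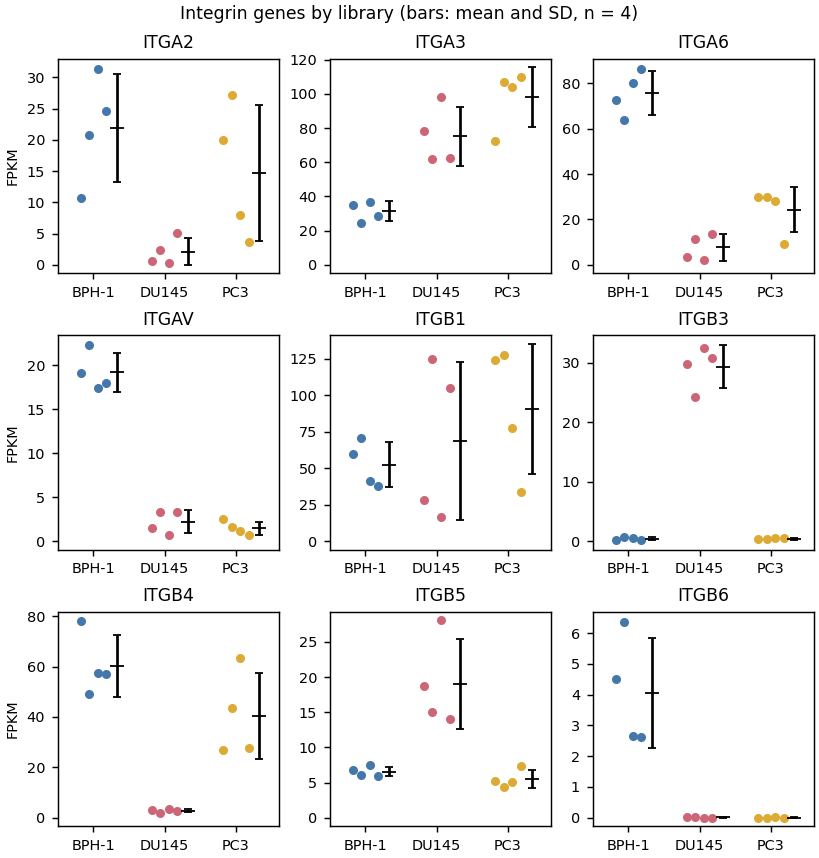
FPKM (linear axis) of 9 integrin genes in each library, grouped by line, with the mean and SD of 4 libraries as a black bar beside the points. ITGAV and ITGB6 are high in BPH-1, ITGB3 and ITGB5 in DU145, ITGB4 is low in DU145, and the points of ITGB1 in DU145 fall into a low pair and a high pair.

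The makeup of the integrin genes differed between lines. ITGA6 made up 46.5% ± 3.8 (SD, n = 4) of the summed FPKM of alpha genes in BPH-1, where ITGA3 followed with 19.3% ± 3.4. With the GC trend divided out these were 38.5% ± 4.0 and 31.9% ± 6.0, and ITGA3 reached 0.632 to 1.01 times the level of ITGA6 in the BPH-1 libraries, so that the lead of ITGA6 in the deposited values was no longer clear. In DU145 ITGA3 made up 69.2% ± 7.1 and in PC3 65.0% ± 10.6 of it. ITGA3 did not overlap the next gene in either PCa line, while ITGA5 and ITGA6 overlapped in DU145 and ITGA6 and ITGA2 overlapped in PC3. Among beta genes, ITGB4 (47.9% ± 8.1) and ITGB1 (40.7% ± 7.3) were the leading genes of BPH-1, with overlapping ranges in the deposited values. After the GC trend was divided out they made up 67.2% ± 7.9 and 21.7% ± 6.9, and ITGB4 lay above ITGB1 without overlap. ITGB1 led in PC3 with 62.5% ± 14.9, although its range (33.6 to 127) overlapped that of ITGB4 (26.8 to 63.2). In DU145 ITGB1 made up 19.8% to 74.2% depending on the library, and ITGB3 made up 27.4% ± 12.1. Their ranges overlapped there, and ITGB3 was above ITGB1 in replicate 1 (29.8 against 28.4) and replicate 3 (32.5 against 16.5). The total over alpha genes was 163 ± 13.5 FPKM in BPH-1, 108 ± 15.3 in DU145 and 152 ± 19.4 in PC3.

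The remaining integrin genes were low. ITGA1, a collagen receptor chain, had an FPKM of 1.09 to 1.53 in BPH-1, 0.0137 to 0.106 in DU145 and 0.0425 to 0.431 in PC3. It was called lower in both PCa lines, but the call in PC3 was lost with the GC trend divided out (-0.11, limma adjusted p = 0.307), and it shares 475 exon bases with PELO on the same strand. Its difference between PC3 and DU145 (0.27, limma adjusted p = 0.0443) was not called when any single library other than PC3 replicate 4 was left out (0.21 to 0.29). ITGA11, another collagen receptor chain, had an FPKM of 1.20, 0.788, 1.37 and 1.11 in DU145, at most 0.0155 in BPH-1 and no read in PC3. Its 846 reads in DU145 were at least 246-fold above PC3 at a floor of 3 reads over the line. ITGAE, the chain that binds E-cadherin, was 1.99 to 3.38 in DU145, 0.739 to 1.08 in BPH-1 and 0.639 to 0.900 in PC3, with a log2 fold change of 0.91 in DU145 against BPH-1 (limma adjusted p = 0.000562). It shares 427 exon bases with HASPIN on the opposite strand (mean FPKM 10.9), and the use of strand in counting is not given in the sources used here. ITGA7, a laminin receptor chain of muscle, was 0.493 to 0.713 in DU145, 0.117 to 0.230 in PC3 and at most 0.0249 in BPH-1. ITGA10 was highest in PC3 (0.322 to 0.454), and ITGA2B, ITGA4 and ITGA9 stayed at or below 0.654 in every library.

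The leukocyte integrins were low in all lines, and ITGB2, ITGAX and ITGAM were highest in DU145. ITGB2, their common beta chain, had an FPKM of 1.73 to 2.51 in DU145, 0.666 to 0.838 in BPH-1 and 0.745 to 1.10 in PC3. It was higher in DU145 than in BPH-1 by 0.80 (limma adjusted p = 0.000326). ITGAX was 0.407 to 0.678 in DU145 and 0.0983 to 0.152 in BPH-1 and had no read in PC3, and ITGAM was 0.272 to 0.494, 0.127 to 0.221 and 0.0405 to 0.130 in DU145, BPH-1 and PC3. ITGAM in PC3 against BPH-1 was -0.12 (limma adjusted p = 0.0305) and was not called without BPH-1 replicate 1 or 2 or PC3 replicate 2 or 3 (-0.12 to -0.10, adjusted p from 0.0593 to 0.0848). ITGB7 went the other way, with 0.397 to 0.551 in PC3, 0.144 to 0.262 in BPH-1 and 0.0272 to 0.130 in DU145, but 1886 of its exon bases are shared with ZNF740 on the opposite strand (mean FPKM 9.10). Its call in DU145 against BPH-1 (-0.16, limma adjusted p = 0.0209) was lost without BPH-1 replicate 4 or DU145 replicate 3 or 4 (-0.14 to -0.13). ITGA4 in DU145 against BPH-1 (-0.14, limma adjusted p = 0.022) was likewise not called without BPH-1 replicate 1 or DU145 replicate 3 or 4 (-0.12 in each case). The summed FPKM of 6 leukocyte markers was 14.4 to 19.1 in BPH-1, 5.10 to 15.4 in DU145 and 6.94 to 13.7 in PC3. Of these markers LYZ, CD68 and PTPRC had a mean FPKM of 1 or more in BPH-1 (8.88, 4.71 and 1.35), CD68 and LYZ in DU145 (6.17 and 4.10) and CD68 in PC3 (10.9), while CD3E was at 0 in every library. Between the libraries labelled DU145, LYZ ran from 0 to 8.63 and PTPRC from 0 to 1.35, so their means do not describe each library. In BPH-1 these genes ran from 7.61 to 10.1 and from 1.15 to 1.54. The part of the leukocyte markers in the levels of the leukocyte integrins was not tested.

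The laminin chains of the hemidesmosome ligand separated in DU145. LAMA3 and LAMB3 encode the alpha and beta chains of laminin-332, the laminin that ITGA6 with ITGB4 and ITGA3 with ITGB1 bind beneath epithelium. RefSeq promoter windows on GRCh38.p14, which reach from 250 bases before to 50 after a gene start, were found for 26 of the 37 genes (33 windows). The 150 bases before the start are shown for a start of LAMA3 and a start of LAMB3 that both lie downstream of the first base of the gene. These genes encode partner chains, and the windows shown were chosen because they hold an AP-1 motif. The other windows listed for LAMB3 hold none. The same is shown for the second of the windows listed for ITGA6, a chain of a laminin-332 receptor. Its start also lies downstream of the first base of the gene. The LAMA3 sequence lies at chr18:23872870-23873019 on the plus strand and the LAMB3 sequence at chr1:209651375-209651524 on the minus strand. The ITGA6 sequence lies at chr2:172427436-172427585 on the plus strand, and each is written 5′ to 3′. Capitals mark the AP-1 motif TGANTCA and the GC box GGGCGG, searched on both strands without overlap between them.
LAMA3: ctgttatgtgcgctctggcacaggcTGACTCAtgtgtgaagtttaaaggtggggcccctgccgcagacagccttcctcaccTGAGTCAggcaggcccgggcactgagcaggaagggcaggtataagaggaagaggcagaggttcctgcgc
LAMB3: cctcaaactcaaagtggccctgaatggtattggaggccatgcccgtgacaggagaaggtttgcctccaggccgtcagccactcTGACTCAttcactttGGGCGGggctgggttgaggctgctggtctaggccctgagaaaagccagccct
ITGA6: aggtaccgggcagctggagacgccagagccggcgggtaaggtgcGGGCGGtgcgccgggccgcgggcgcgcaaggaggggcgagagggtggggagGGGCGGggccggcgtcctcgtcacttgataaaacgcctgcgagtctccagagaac
AP-1 letters were present in 3 of the 33 windows (9.09%), beside 7.71% of 35116 windows of all genes, and GC boxes in 57.6% beside 45.0%. These matches describe the letters and not the use of a site.

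LAMA3 had an FPKM of 49.6, 65.2, 40.0 and 36.8 in BPH-1, 1.48, 2.88, 1.13 and 4.04 in DU145 and 14.5, 16.2, 13.4 and 7.35 in PC3. The 3 lines did not overlap. Relative to BPH-1 it changed by -3.90 in DU145 (standard error 0.29, limma adjusted p = 3.62e-06) and -1.84 in PC3 (standard error 0.25, limma adjusted p = 0.000145), and PC3 was higher than DU145 by 2.07 (limma adjusted p = 0.00065). The GC correction moved none of these by more than 0.10, and each was called in every alternative run.

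LAMB3 had an FPKM of 82.5, 125, 82.3 and 103 in BPH-1. It was 327, 199, 394 and 255 in DU145, the highest values of any member, and 37.5, 33.2, 30.3 and 75.1 in PC3. No ranges overlapped, and PC3 replicate 4 came closest to BPH-1. The log2 fold change was 1.55 in DU145 (standard error 0.23, limma adjusted p = 0.000278) and -1.22 in PC3 (standard error 0.27, limma adjusted p = 0.00306) against BPH-1, and in PC3 relative to DU145 it was -2.76 (standard error 0.31, limma adjusted p = 9.23e-05). Dividing out the GC trend gave 1.004, -1.62 and -2.63. The FPKM of LAMB3 divided by that of LAMA3 was 1.66 to 2.80 in BPH-1, 2.05 to 10.2 in PC3 and 63.1 to 347 in DU145 (70.3 to 211 with the GC trend divided out).

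Of the alpha chains used outside laminin-332, LAMA5, the main alpha chain of mature epithelial basement membranes, had an FPKM of 24.2, 21.7, 16.7 and 27.0 in BPH-1, 45.7, 30.0, 45.8 and 35.8 in DU145 and 36.7, 45.4, 50.7 and 39.6 in PC3. Both PCa lines were above BPH-1 without overlap, with log2 fold changes of 0.92 in PC3 (standard error 0.16, limma adjusted p = 0.000667) and 0.78 in DU145 (standard error 0.20, limma adjusted p = 0.00653). LAMA5 has the highest GC content of the members (65.3%), and with the GC trend divided out neither was called (0.34, adjusted p = 0.0698, and 0.20, adjusted p = 0.224). It also shares 244 exon bases with ADRM1 on the opposite strand, which had a mean FPKM of 106. LAMA1, the alpha chain of the early embryonic basement membrane, had an FPKM of 6.49, 7.49, 3.34 and 8.57 in DU145, at most 0.0166 in BPH-1 and at most 0.00781 in PC3. Its reads summed to 7780 in DU145, 13 in BPH-1 and 5 in PC3, a depth-scaled ratio to BPH-1 of 603 (95% counting interval 352 to 1133). LAMA4, a chain of vessels and mesenchyme, showed the reverse, with 1.53, 5.51, 1.89 and 2.29 in BPH-1, 1.048, 1.53, 1.31 and 0.590 in PC3 and at most 0.0100 in DU145. Its call in PC3 against BPH-1 (-0.76, limma adjusted p = 0.0375) was lost without BPH-1 replicate 4 or PC3 replicate 1, 3 or 4 (-0.81 to -0.63, adjusted p from 0.0567 to 0.0976). LAMA2, the muscle chain, stayed at or below 0.245 in every library.

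Of the beta chains, LAMB2 was higher in both PCa lines. Its FPKM was 5.403, 8.45, 4.74 and 8.63 in BPH-1, 20.3, 12.3, 20.4 and 16.6 in DU145 and 16.1, 19.3, 23.1 and 20.9 in PC3, and both PCa lines stood above BPH-1 without overlap. Its log2 fold change was 1.44 in PC3 (standard error 0.19, limma adjusted p = 0.000139) and 1.25 in DU145 (standard error 0.23, limma adjusted p = 0.00107), and 1.06 and 0.75 with the GC trend divided out. LAMB1, which takes the same place in the trimer, had an FPKM of 25.4, 26.1, 25.02 and 19.8 in BPH-1, 10.6, 18.4, 7.56 and 22.1 in DU145 and 21.4, 22.7, 19.0 and 12.6 in PC3. It overlapped between all lines. Its call in DU145 against BPH-1 (-0.78, limma adjusted p = 0.0413) was lost without DU145 replicate 1 or 3 and without any 1 of the BPH-1 libraries (-0.87 to -0.52, adjusted p from 0.0503 to 0.109). With DU145 replicates 1 and 3 only it was -1.32 (limma adjusted p = 0.000338), and with replicates 2 and 4 only -0.23 (limma adjusted p = 0.193). LAMB1 shares 70 exon bases with DLD on the opposite strand.

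The gamma chains on the list moved apart. LAMC1, the common gamma chain, had an FPKM of 65.3, 76.6, 56.2 and 60.9 in BPH-1, 78.4, 99.2, 45.4 and 100.03 in DU145 and 20.1, 21.5, 21.6 and 18.6 in PC3. PC3 stood below both other lines without overlap, with a log2 fold change of -1.61 against BPH-1 (standard error 0.12, limma adjusted p = 2.68e-06) and -1.87 against DU145 (standard error 0.24, limma adjusted p = 0.000207). DU145 overlapped BPH-1 (0.26, limma adjusted p = 0.384), and without DU145 replicate 3 the difference was 0.51 (limma adjusted p = 0.0216). LAMC3, a gamma chain of few tissues, had an FPKM of 3.34, 1.85, 2.90 and 2.36 in DU145, 0.780, 0.887, 0.971 and 1.15 in PC3 and at most 0.0121 in BPH-1, where its reads summed to 2. The depth-scaled ratio to BPH-1 was 865 in DU145 (95% counting interval 239 to 7147) and 313 in PC3 (86.1 to 2588).

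**Figure D5:**
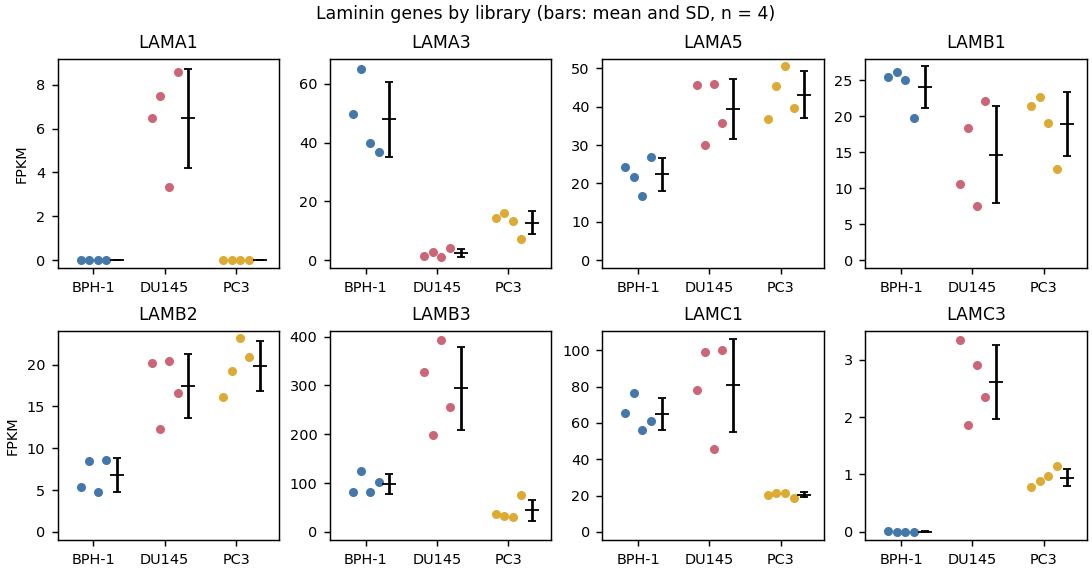
FPKM (linear axis) of 8 laminin genes in each library, grouped by line, with the mean and SD of 4 libraries as a black bar beside the points. LAMA3 is highest in BPH-1, LAMB3 and LAMA1 are highest in DU145, and the 4 PC3 libraries of LAMC1 lie between 18.6 and 21.6, below all others.

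Within each laminin family the leading gene was LAMA3 among alpha genes in BPH-1 (64.9% ± 6.6 of their summed FPKM, SD, n = 4) and LAMA5 in DU145 (80.8% ± 8.5) and PC3 (75.7% ± 5.9). LAMB3 led the beta genes in all 3 lines. It made up 75.7% ± 3.0 in BPH-1, 89.5% ± 3.4 in DU145 and 51.3% ± 12.4 in PC3, where LAMB2 (24.6% ± 5.6) and LAMB1 (24.1% ± 8.5) overlapped in FPKM. LAMA1 added 13.7% ± 5.5 of the alpha genes in DU145 only. The sum over beta genes was 129 ± 22.1 FPKM in BPH-1, 326 ± 82.6 in DU145 and 82.8 ± 17.3 in PC3.

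Other components of the basement membrane were measured as a list. Of the 10 genes on this list, 8 were tested in PC3 against BPH-1, with 1 higher and 5 lower, and 9 in DU145 against BPH-1, with 5 higher and 4 lower (medians -0.70 and 0.49, beside -0.13 and -0.03 for all genes tested). These counts stand beside 67.6% and 62.7% of all genes called. In PC3 against DU145, 3 of 9 were higher and 4 lower, beside 48.3% of all genes called. The type IV collagen genes COL4A1 and COL4A2 had mean FPKM of 21.7 and 34.5 in BPH-1, 36.3 and 111 in DU145 and 6.62 and 16.8 in PC3. COL4A5 and COL4A6, which encode other chains of this collagen, were 4.00 and 2.64 in BPH-1, 4.20 and 2.19 in PC3 and 0.00125 and 0.00237 in DU145. NID2, the gene of a nidogen that links laminin to collagen, was lower in PC3 (-1.92) and in DU145 (-2.14), and HSPG2, the gene of perlecan, was higher (2.40 and 1.58). Levels, fold changes and calls of genes other than the members are from the deposited values. Apart from the call of PLEC in DU145, they are not given here with the GC trend divided out. A further list held 5 genes entered as laminin receptors other than integrins, a role that was not tested here. Of these genes RPSA was higher and BCAM and SDC4 were lower in PC3 against BPH-1 (1.72, -1.42 and -1.37). In DU145 against BPH-1 the 5 had adjusted p of 0.0698 to 0.760 in limma. Of all genes 67.6% and 62.7% were called in these 2 comparisons. Between PC3 and DU145, 2 of these 5 genes were higher and 2 lower in PC3, beside 48.3% of all genes called.

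Of 29 genes for integrin activators, adaptors and focal adhesion proteins, 13 were higher and 6 lower in PC3 against BPH-1 and 9 were higher and 5 lower in DU145 against BPH-1, with medians of 0.20 and 0.08. The share called was thus close to the 67.6% of all genes in PC3 and below the 62.7% in DU145. Between PC3 and DU145, 9 of 28 were higher and 6 lower, near the 48.3% of all genes called. SHARPIN, which encodes an inhibitor of integrin activation, rose in both (2.09 and 1.95). TLN1, the gene of talin that activates integrins, had a mean FPKM of 37.8 in BPH-1, 45.4 in PC3 and 160 in DU145. TNS4, a tensin that binds beta chains, was 22.1 in BPH-1, 16.5 in PC3 and 0.140 in DU145. FERMT1, an epithelial kindlin, was lower in DU145 (-1.92, limma adjusted p = 0.000376), and the tyrosine kinase gene SRC was higher in PC3 (1.56, limma adjusted p = 1.64e-06). Of 18 ligand genes, 16 were in the table, and 4 of 10 tested were higher and 5 lower in PC3, and 5 of 12 were higher and 5 lower in DU145, each against BPH-1, where 67.6% and 62.7% of all genes were called. FN1, the fibronectin gene, had a mean FPKM of 79.5 in BPH-1, 8.60 in PC3 and 0.767 in DU145, and THBS1 (thrombospondin 1) 166, 11.05 and 75.2. LTBP1, which holds latent TGF-beta for alpha v integrins, rose in PC3 from 0.959 to 21.2, and ICAM1, the ligand of leukocyte integrins, rose in both (2.53 in PC3 and 2.54 in DU145).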

How the data were processed

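RNA-sequencing values of 4 libraries each of BPH-1, DU145 and PC3 were analysed. The authors deposited 1 table on GRCh38, and its values had the form of FPKM, though the header names no unit. The submitters' processing notes list CASAVA 1.8, HISAT2 2.1.0 and edgeR, and the counting program, annotation and use of strand are not given in the sources used here. In each library 92.3% to 94.0% of values under 15 reads were whole reads (within 0.02) once multiplied by length, taken as the sum of distinct exons in GENCODE 29, and this gave the depth. This limit was set after the data were seen, and the depths were the same under the limit used before. For 263 genes no length was found, and they were not tested. Lines were compared with limma 3.58.1 (R 4.3.3, trend) on log2(FPKM + 1) over genes that reached 10 reads, scaled to median depth, in 4 libraries and 15 reads in all, with only the 2 lines compared in a fit. The GC trend of a library was fitted as a natural spline (5 degrees of freedom) to the genes whose mean was 50 reads or more. The scripts were tested on simulated data. Replicates of a line differed by more than counting noise in all 18 pairs (mean chi-square per gene 19.6 to 265). Intervals and floors cover counting error only. Members and gene lists were chosen with earlier results of these data known. Members were given in every library if their mean FPKM was at least 5 in a line and they were called, or if they complete a known pair or trimer with such a gene; others are given by range, except that LAMA4, LAMC3 and ITGA11 were chosen after their values were seen. Of each other list the called genes with the largest changes were named, up to 3 in each direction. Alternatives were another filter, pseudocount, scaling, fit or model, the GC correction, a replicate block and leaving out each library. Taking DU145 by pairs of replicates, the GC correction with the block and merged exon lengths were added after the data were seen. Other software was Python 3.11.15, numpy 2.4.6, pandas 2.3.3, scipy 1.17.1 and matplotlib 3.10.9.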

Additional observations from a re-analysis of the deposited data

Results flagged for a closer look

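A library far from the 3 others of its line by Dixon's criterion (0.829 for 4 values) was found in 18 of 105 gene and line groups with any spread. Chance gives about 1 in 20 for continuous values, but 10 of the 18 were groups with at most 3 reads in the library concerned and ties or near ties among the others, for which the criterion is met by construction, so the count is not set against chance. Among well measured genes, PC3 replicate 4 was low for ITGA6 (FPKM 9.32 against 28.2 to 29.9) and high for LAMB3 (75.1 against 30.3 to 37.5), and PC3 replicate 1 was low for ITGA3 (72.2 against 104 to 110). BPH-1 replicate 2 was high for ITGA5 (17.4 against 9.21 to 10.5), and BPH-1 replicate 4 was low for LAMB1 (19.8 against 25.02 to 26.1). Among low genes, DU145 replicate 4 was low for ITGAM (0.272), BPH-1 replicate 4 was high for ITGAX (0.152) and PC3 replicate 1 was low for ITGB7 (0.397). The 10 groups with at most 3 reads were ITGA8 and LAMA1 in PC3 replicate 4 (0.00976 and 0.00781), ITGA9 in BPH-1 replicate 1 and PC3 replicate 1 (0.0135 and 0.00804), ITGAD in DU145 replicate 3 and PC3 replicate 1 (0.0128 and 0.0152), ITGB6 in PC3 replicate 3 (0.0164), LAMB4 in BPH-1 replicate 4 and DU145 replicate 4 (0 and 0.00809) and LAMC3 in BPH-1 replicate 1 (0.0121).

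For 4 members the PCa lines moved opposite ways against BPH-1 and also differed from each other in limma. PC3 differed from DU145 by -2.76 on the log2 scale for LAMB3, -0.65 for ITGAX, -0.40 for ITGAM and 0.49 for ITGB7 (limma adjusted p = 9.23e-05 for LAMB3, 0.000843 for ITGAM and 0.000107 for ITGB7). ITGAX had no read in PC3 and entered the comparisons with PC3 only through the other line, so its difference was fixed by the filter. The calls of ITGAM in PC3 and of ITGB7 in DU145, each against BPH-1, were lost when certain single libraries were left out. Of the 4 members LAMB3 alone had an FPKM above 1.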

How the results depend on the processing

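The direction of every called member was the same in each alternative run. The log2 fold change of ITGB1 in DU145 against BPH-1, which was not called, reversed to 1.61 with the GC trend divided out (also with the block) and to 1.16 with DU145 replicates 2 and 4 only, and the cause was not tested. With the GC trend divided out, uncalled changes of ITGA2 (0.35) and ITGB2 (-0.08) in PC3 and of ITGA5 (-0.21) in DU145 against BPH-1 also turned and stayed uncalled. Counts of members called moved when only genes with FPKM of at least 1 in 4 libraries were tested, since fewer members entered, to 3 higher in PC3 against BPH-1, 10 higher in DU145 against BPH-1, and 4 higher and 8 lower in PC3 against DU145. They also moved when a log2 fold change over 1 was required (27.0%, 28.8% and 19.3% of all genes called), to 2 higher and 7 lower, 8 higher (lower 9), and 5 higher and 7 lower. With libraries left out in turn, counts were 8 to 9 higher and 12 to 13 lower, 17 to 18 higher and 9 to 12 lower, and 7 to 9 higher and 14 to 14 lower. For the FPKM limit of 1 and the left-out libraries, the share of all genes called is not given here. Those counts are therefore not set against it. Scaling libraries to the same FPKM sum shifted the median of all genes by -0.16 in PC3 and -0.14 in DU145 against BPH-1. Against BPH-1, 17 members were then lower in PC3, ITGAE, ITGB4, ITGB5 and LAMB1 being added. Of all 16408 genes tested there, 7923 were lower under this scaling and 6633 without it. The share of ITGA6 among alpha genes in BPH-1 became 38.5% and that of ITGB4 among beta genes 67.2% with the GC trend divided out, and that of LAMB3 among beta genes 72.0% with merged exons. Left out in turn, libraries moved the shares of leading genes to between 40.8% and 58.9% for ITGB1 in DU145 and by less for the others. Equal replicate numbers did not pair the samples (correlations of PC3 with DU145 -0.50, 0.56, 0.04 and -0.69), and with a replicate block 9 members were higher and 14 lower in PC3 against BPH-1, 17 and 10 in DU145 against BPH-1, and 8 and 14 in PC3 against DU145. The share of all genes called with the block is not given here, so these counts are not set against it. Under the block LAMB1 and ITGB7 in DU145 against BPH-1 (limma adjusted p = 0.0523 and 0.0542) and ITGA6 in PC3 against DU145 (0.0590) were not called, and ITGB1 and LAMB1 in PC3 against BPH-1 were (0.0285 and 0.0359). Depth limits genes at or under 3 reads, such as ITGA8, ITGAD and LAMB4.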
